A study of Mus musculus with 14 samples.

Results

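The regions described here are stretches of the mouse genome that held a BCOR peak in the embryonic day 14 (E14) retina and no other BCOR peak of the study. They also lacked an Otx2 peak at E14. To find them, overlapping peaks (1 shared bp or more) of all 10 peak lists on chromosomes 1 to 19 were merged into 39193 regions. Regions were chosen by the presence and absence of called peaks: a BCOR peak at E14 was required. No Otx2 peak at E14 and no BCOR peak from P0 (the day of birth) or adult libraries was allowed. The rule kept 2749 of the 10628 merged regions with a BCOR peak at E14, 25.9% (95% Wilson interval 25.0 to 26.7). They are called the E14-only regions below.

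The peaks come from CUT&RUN, in which an antibody tethers a nuclease to chromatin and the released DNA around the bound protein is sequenced. All retinas were from wild-type CD1 mice, with no transgene or knockdown named for the CUT&RUN samples. Each of BCOR and Otx2 has 1 library at E14 and 2 libraries at each of P0 and adulthood; the labels give the adults no exact age. Labels give the material as retinal cells and name no sort for CUT&RUN, so each library mixes the cell types present at its age, and the number of animals per library is not given. For the factor labelled Otx2 in every sample, the series' text also writes Otx2/Crx, and whether the antibody also binds the related protein Crx is not known here. The 4 RNA libraries of the series, from BCOR knockdown and control cells, were not used.

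BCOR is a corepressor: it does not read a DNA sequence itself but is brought to chromatin by partners. It is a core subunit of a variant Polycomb repressive complex 1, which also holds PCGF1 and KDM2B and places a ubiquitin mark on histone H2A, often at CpG islands. Otx2 is a homeobox transcription factor that photoreceptor and bipolar cells need, and Crx is its close relative in the same cells. At E14 the retina is mostly dividing progenitors with the earliest neurons, including young cones and ganglion cells. By P0 rods are being born in number, and in the adult, where division has ended, rods are the most abundant cell.

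The E14-only regions carried weak BCOR peaks. A peak's fold, the authors' value, is the stack of sequenced DNA at its summit (the pileup) over the local background, each with 1 added. Its median over the 2749 regions was 4.41 (quartiles 3.96 and 5.09, range 2.45 to 11.9), against 5.41 over all 10628 BCOR regions of E14. Among the other classes of BCOR region it was 5.16 in the 1119 regions of E14 alone that did hold Otx2 at E14, and 5.21 in the 2305 regions with a later BCOR peak and no Otx2 at E14. The remaining 4455 regions, with later BCOR and with Otx2 at E14, had a median fold of 6.81. These values come from the list that chose the regions and are a description, with no test.

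Behind these folds stood few sequenced molecules. The median pileup at the summit was 11 (quartiles 9 and 13, range 7 to 49) in the E14-only regions, 13 where Otx2 was also present at E14, 14 where BCOR was also called later and 21 where both held. A pileup of 11 has an exact Poisson 95% interval of 5.49 to 19.7, which covers counting error only, so single E14-only peaks had wide counting error. Their peaks were also the narrowest, with a median of 292 bp (quartiles 234 and 381) against 358, 400 and 524 bp in the other classes in the same order. A q-value under 0.05 was reached by 2649 of the 2749 peaks (96.4%), under 0.01 by 2280 (82.9%) and under 0.001 by 1669 (60.7%). Over all BCOR regions of E14 these shares were higher, at 98.7%, 93.6% and 83.2%. None of the regions was built from more than 1 BCOR peak of E14. This was rare in the other classes too, at 6 of 1119, 20 of 2305 and 82 of 4455 regions in the same order.

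**Figure D1:**
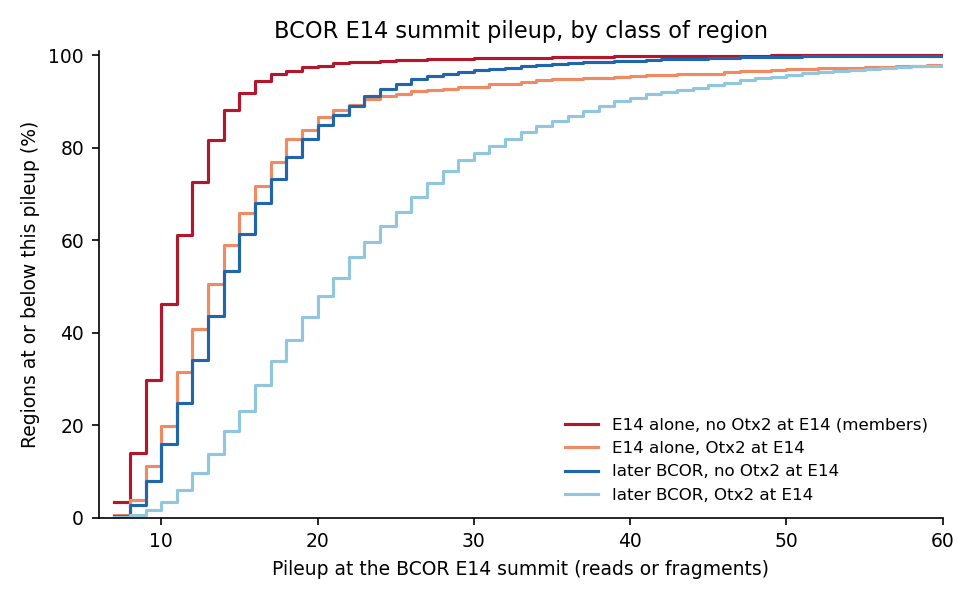
Cumulative share of BCOR E14 regions (%, vertical axis) at or below each summit pileup (horizontal axis, cut at 60) in the 4 classes. The curve of the 2749 E14-only regions, median 11, lies left of the others, whose medians are 13, 14 and 21.

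Membership followed peak height closely. Of the 518 BCOR regions of E14 with a pileup of 7 or 8, 384 (74.1%) were E14-only. The share was 59.3% (887 of 1495) at a pileup of 9 or 10, 43.7% (723 of 1655) at 11 or 12 and 29.4% (433 of 1474) at 13 or 14. It dropped to 13.7% (212 of 1545) at 15 to 17, 4.75% (62 of 1304) at 18 to 21 and 1.85% (48 of 2601) at 22 and above. Ranked by q-value in 10 equal parts, the weakest part was 64.8% E14-only and the strongest 0.282%, which is 3 of its 1063 regions. E14-only regions were thus concentrated among the lowest peaks of the list.

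**Figure D2:**
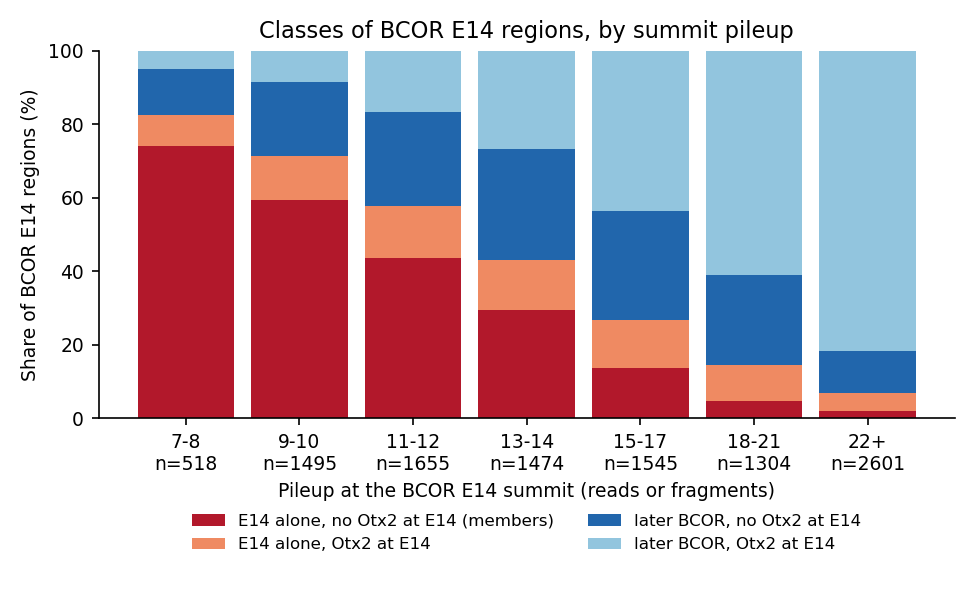
Share of BCOR E14 regions (%) in each of the 4 classes, by pileup at the E14 summit, with the number of regions under each bar. The dark red E14-only share falls from 74.1% at a pileup of 7 or 8 to 1.85% at 22 and above.

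How far the later BCOR libraries could have shown peaks of this height was read from their depth. The lowest local background shared by at least 2% of a list's peaks was taken as the caller's genome-wide level. This level was assumed to scale with library size, which was not tested. Relative to BCOR at E14 it was 80.0% and 72.6% in the P0 libraries (replicates 1 and 2) and 89.4% and 44.4% in the adult libraries. Scaled by these shares, the E14 pileup of 384 of the E14-only regions (13.97%) lay below the lowest pileup called at that background in P0 replicate 1. The same held for 819 (29.8%) in P0 replicate 2, 384 (13.97%) in adult replicate 1 and 1681 (61.1%) in adult replicate 2. In the class with later BCOR and no Otx2 at E14 these shares were 2.82%, 7.90%, 2.82% and 24.8%. In adult replicate 2, an equal BCOR signal would thus have been under the lowest called pileup in most E14-only regions.

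Counting error narrows the comparison further. The lower Poisson bound of each E14 pileup was taken first and then scaled. It still reached the lowest callable pileup in 225 E14-only regions (8.18%) for P0 replicate 1 and 153 (5.57%) for P0 replicate 2. For adult replicate 1 it did so in 225 and for adult replicate 2 in 91 (3.31%). Of these, 37, 20, 37 and 6 had a local background at the genome-wide level, to which the lowest callable pileup applies. For the others the missing later peak was not separable, at this depth, from an equal signal that fell short of the call. The later library's own counting error was left out. These counts therefore do not show that an equal signal would have been called in the regions counted. The lists were also cut at different points: the largest q-value was 0.0999 for BCOR at E14, 0.0496 and 0.0481 at P0, and 0.248 in both adult lists. With 1 BCOR library at E14, whether the same peaks would be called in another E14 retina was not tested.

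A minority of the E14-only regions lay beside a later BCOR peak. A gap of 200 bp or less separated 50 of them (1.82%) from one, and 159 (5.78%) lay within 1 kb. Of the 1119 regions of E14 alone with Otx2 at E14, 1 (0.0894%) lay within 200 bp of a later BCOR peak and 21 (1.88%) within 1 kb. The list of P0 replicate 2, with 8784 peaks against 5292 in replicate 1, set much of the membership. Without it 3713 regions would have qualified, and without replicate 1 2880.

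Later Otx2 peaks were neither required nor excluded by the rule and could be counted in the regions. They did take part in the merging. Without any merging 2799 BCOR peaks of E14 would have qualified. At P0, 689 of the 2749 E14-only regions (25.1%, interval 23.5 to 26.7) held a peak of Otx2 replicate 1, against 57.6% of all BCOR regions of E14. Replicate 2 had a peak in 751 (27.3%, 25.7 to 29.0), against 60.5% of all. Either replicate marked 891 (32.4%, 30.7 to 34.2; 64.9% of all) and both marked 549 (19.97%, 18.5 to 21.5; 53.2% of all). In each P0 replicate the share was smaller than among BCOR regions at large, of which the E14-only regions are part. The gap was smaller beside the 5054 BCOR regions without Otx2 at E14, E14-only regions included. Their shares were 31.2% and 34.3%, and 40.0% for either replicate.

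In the adult, Otx2 replicate 1 had a peak in 76 E14-only regions (2.76%, with 18.6% of all BCOR regions of E14) and replicate 2 in 313 (11.4%, with 40.8%). Either replicate marked 316 (11.5%, interval 10.4 to 12.7; 41% of all) and both marked 73 (2.66%; 18.3% of all). Among the 5054 BCOR regions without Otx2 at E14, either adult replicate marked 19.5%. The lists themselves held 7183 and 14590 peaks. A total of 73 of the 76 regions with a peak in replicate 1 had one in replicate 2 (96.1%), whereas 23.3% of those in replicate 2 had one in replicate 1. At P0 the replicates were closer, with 79.7% of the regions of replicate 1 also in replicate 2 and 73.1% the other way.

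**Figure D3:**
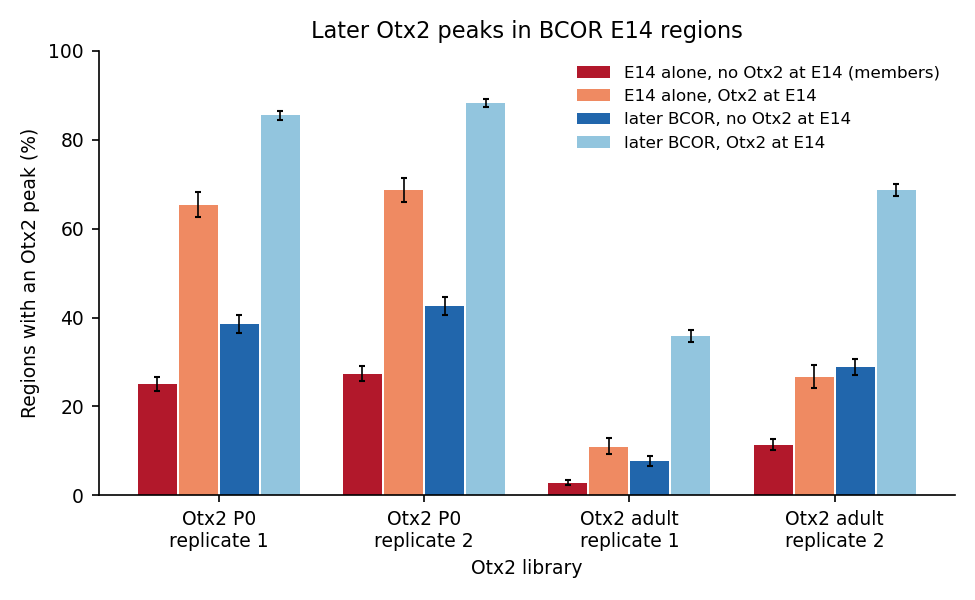
Share of regions (%) with a peak in each of the 4 later Otx2 libraries, for the 4 classes of BCOR E14 region; whiskers are 95% Wilson intervals, which cover counting error over regions only. The E14-only bars (25.1%, 27.3%, 2.76% and 11.4%) are the lowest in every library.

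No later library held an Otx2 peak in 1761 of the E14-only regions (64.1%), against 31.4% of all BCOR regions of E14 and 44.1% of the class with later BCOR and no Otx2 at E14. Otx2 was found at P0 only in 672 (24.4%), close to the 27.6% of all and 26.8% of that class. It was found at both ages in 219 (7.97%), against 37.3% and 22.2%, and in adult retina only in 97 (3.53%), against 3.74% and 6.90%. All 4 later libraries held a peak in 62 (2.26%), against 17.6% and 6.20%. The shares thus lay apart mainly in regions with Otx2 at both ages and in those with none. Among regions with Otx2 at P0, 24.6% (219 of 891) had it in the adult too. That share was 45.3% (511 of 1129) in the class with later BCOR.

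The class with later BCOR and no Otx2 at E14 is the nearest comparison, since both lacked Otx2 at E14 and differed in whether BCOR was called later. The rule split them on BCOR peaks called at P0 or in the adult, the ages at which Otx2 was counted. Comparisons with that class are thus not independent of the choice. It held Otx2 at P0 in 38.6% of its regions in replicate 1 and 42.6% in replicate 2, and in either adult library in 29.1%. Because its E14 BCOR peaks were taller, its shares were reweighted to the pileups of the E14-only regions. They then stood at 38.0% and 42.0% at P0, against 25.1% and 27.3%, and at 25.4% in either adult library, against 11.5%. Only pileup was matched. Local background was at the genome-wide level in 54.7% of the E14-only regions and 25.9% of that class. Median widths were 292 and 400 bp. What part these differences have in the Otx2 shares was not tested. A gap in the Otx2 share was present at each pileup range. For a peak in either P0 library the shares were 26.0% against 46.2% at a pileup of 7 or 8, 32.7% against 47.8% at 9 or 10 and 33.6% against 49.1% at 11 or 12. They were 35.1% against 44.2% at 13 or 14, 33.5% against 46.2% at 15 to 17, 40.3% against 60.8% at 18 to 21 and 20.8% against 49.7% at 22 and above. Of the 48 E14-only regions in this last range, 21 had a pileup of 30 or more. Their median local background was 10.3, against the genome-wide 1.497, and none of the 21 held later Otx2. Regions are not replicates of a stage and each age has at most 2 libraries, so no test of this difference was made, and whether it would recur in other retinas was not tested.

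**Figure D4:**
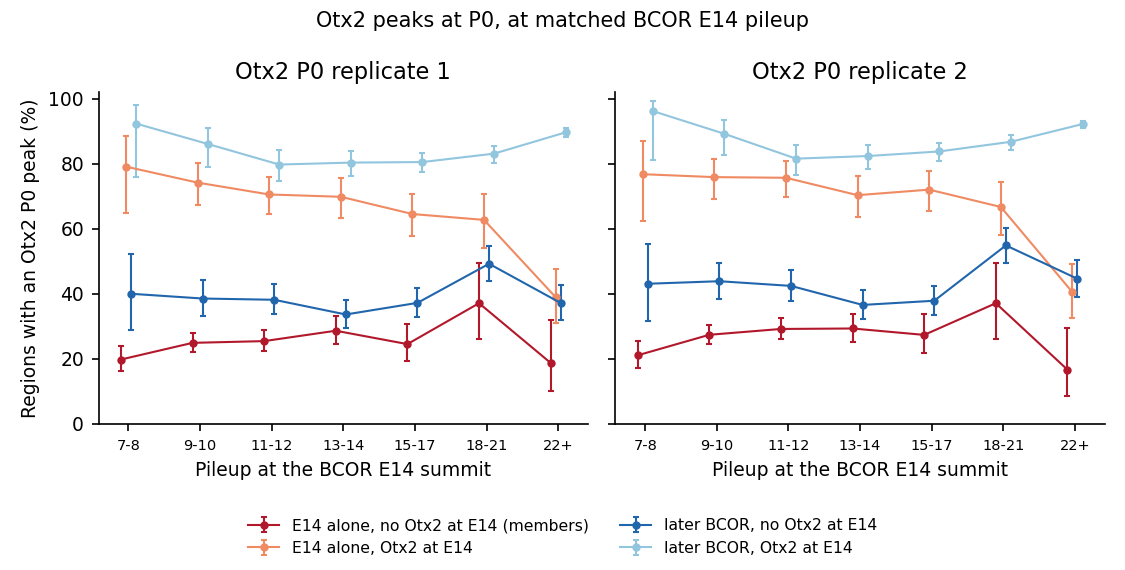
Share of regions (%) with an Otx2 peak at P0 by pileup at the BCOR E14 summit, replicate 1 on the left and replicate 2 on the right, for the 4 classes; whiskers are 95% Wilson intervals over regions. The E14-only points are the lowest at every pileup in both replicates.

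The regions of E14 alone that did hold Otx2 at E14 had larger shares: 73.9% had an Otx2 peak in either P0 library, or 79.8% at the pileups of the E14-only regions. In either adult library the share was 27.2%, or 23.8% at matched pileups. The E14-only regions thus had the lowest shares of later Otx2 of the classes. Their rule excludes Otx2 at E14, so the comparison with classes that require it is not independent of the choice.

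Where Otx2 did appear at P0, its peaks were of ordinary height. The pileup at the Otx2 summit had a median of 15 in replicate 1 and 19 in replicate 2 inside E14-only regions, against 15 and 18 over the whole Otx2 lists. Median folds were 5.72 and 5.81, against 6.36 and 6.49 in the whole lists. In the regions of E14 alone with Otx2 at E14, the P0 Otx2 pileups were 25 and 30. The Otx2 summit lay a median of 87 bp (replicate 1) and 85 bp (replicate 2) from the BCOR summit of E14, and within 100 bp in 55.2% and 56.9% of these regions. In the class with later BCOR and no Otx2 at E14 the median was 77 bp in both. Counted over all 2749 regions, an Otx2 summit lay within 250 bp of the BCOR summit in 22.04% and 24.48%, against 32.6% and 35.6% in that class.

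Named sites show the range. The largest BCOR fold of the E14-only regions was at chr17:57995378-57995627 (build mm9, as for all coordinates here), where the pileup was 30 over a background of 1.61 and the fold 11.9. It held no later Otx2 peak, and the nearest Otx2 peak of E14 was 607941 bp away. Next came chr8:71612370-71612689, with a BCOR fold of 10.3 and Otx2 folds of 7.71 in P0 replicate 1 and 11.95 in adult replicate 2; the Otx2 summits were 20 and 2 bp from the BCOR summit. At chr19:61275452-61275728 the BCOR fold was 10.1, without Otx2. These sites lie in the tail: 22 of the 2749 regions had a fold of 8 or more. Of the 22, 9 had Otx2 at P0 (40.9%, interval 23.3 to 61.3), against 32.4% of all E14-only regions.

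Among the 15 highest folds (8.55 to 11.9), 8 regions held Otx2 later and 7 had none. Of all E14-only regions, 35.9% held it later. The region chr8:63369014-63369459 had a BCOR fold of 9.77 and Otx2 folds of 6.43 and 5.51 at P0 and 11.5 in adult replicate 2, with summits 34, 3 and 10 bp from that of BCOR. At chr7:52317814-52318079 the BCOR fold was 9.63, and the Otx2 folds were 5.90 and 7.38 at P0 and 6.08 in adult replicate 2. At chr3:89215777-89216083 a BCOR fold of 9.35 went with Otx2 folds of 10.1 and 13.01 at P0 and 13.4 in adult replicate 2. At these 3 sites and at chr8:71612370-71612689 each later Otx2 summit was within 71 bp of the BCOR summit. Adult replicate 1 held no Otx2 peak at any of the 15, and at 2.76% of all E14-only regions it held one.

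Further down the same 15, chr11:57775966-57776284 (BCOR fold 9.21) had Otx2 in both P0 libraries and in adult replicate 2, with folds of 4.06, 7.37 and 4.49. Both P0 libraries and no adult library marked chr9:21069516-21069831 (BCOR fold 9.21, Otx2 folds 7.60 and 5.90), chr6:17756687-17757065 (9, with 4.95 and 4.67) and chr9:54407884-54408191 (8.61, with 4.19 and 4.03). The regions without later Otx2 included chr7:31502417-31502717 (BCOR fold 9.21), chr8:10760902-10761151 (8.81), chr8:71919319-71919721 (8.61) and chr11:76030811-76031262 (8.61). The last of the 15, chr11:3003937-3004200, stood apart by its local background of 4.38, under a pileup of 45. The other 14 had backgrounds from 1.497 to 1.89.

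Of the 62 regions with Otx2 in all 4 later libraries, the largest BCOR folds ran from 6.05 to 7.61. The highest, chr12:100883339-100883878 (BCOR 7.61), had P0 Otx2 folds of 3.27 and 4.47 and adult Otx2 folds of 3.27 and 6.11, with P0 summits 374 and 424 bp from that of BCOR. At chr7:3581258-3581594 the BCOR fold was 7.21 and the Otx2 folds were 3.86, 5.13, 3.7998 and 7.79 in the same order. Much taller Otx2 peaks stood at chr9:26613685-26614159, where the BCOR fold was 6.05 and the Otx2 folds 10.96, 15.4, 13.01 and 30.8. There the P0 summits lay 33 and 20 bp from the BCOR summit. Otx2 folds of 5.68, 9.01, 7.31 and 19.7 were found at chr2:5766023-5766311 (BCOR 6.41), and of 5.94, 6.03, 4.97 and 10.1 at chr6:148779769-148780183 (BCOR 6.69).

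The 10 widest E14-only peaks spanned 879 to 1230 bp, with folds of 4.01 to 6.30 and pileups of 9 to 19, around and above the medians of 4.41 and 11. The widest, chr6:122289288-122290517 (1230 bp), had a fold of 4.18 and a pileup of 11, and no later Otx2 peak. Next were chr12:20202383-20203472 (1090 bp, fold 5.15) and chr4:80557173-80558176 (1004 bp, fold 4.60). The last of these held Otx2 in both P0 libraries (folds 3.38 and 4.51) and in adult replicate 2 (6.68). Only 1 other of the 10 had later Otx2, chr1:182707683-182708610, with a fold of 9.12 in adult replicate 2 at a summit 567 bp away. The share with later Otx2 over all E14-only regions was 35.9%. None of the 10 was among the 15 with the largest fold.

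Few E14-only regions lay close to a called Otx2 peak of E14. Otx2 has 1 library at E14, with 8497 peaks, against 21759 and 24884 in the P0 libraries. An Otx2 signal at E14 too low to be called inside a region could not be seen. Their median gap to the nearest Otx2 peak of E14 was 73567 bp (quartiles 25936 and 189668). It was 59772 bp for the class with later BCOR and no Otx2 at E14. Of the 2749, 18 (0.655%) lay within 200 bp of an Otx2 peak of E14, 96 (3.49%) within 1 kb, 310 (11.3%) within 10 kb and 1616 (58.8%) within 100 kb. In the class with later BCOR the shares were 0.260% (6 regions) within 200 bp, 2.65% within 1 kb, 12.8% within 10 kb and 65.2% within 100 kb. The E14-only share was thus the larger up to 1 kb and the smaller from 10 kb on. Just inside the rule were chr10:20032705-20032962 with a gap of 28 bp, chr6:39674894-39675284 with 32, chr13:12595124-12595569 with 53, chr11:94885998-94886269 with 57 and chr4:47450330-47450539 with 68. Their BCOR folds were 3.57, 4.34, 3.60, 5.10 and 3.43, and none of the 5 had later Otx2, against 35.9% of all E14-only regions.

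Just outside the rule, the smallest overlaps between a BCOR and an Otx2 peak of E14 were 6 bp at chr10:25016614-25016839 and at chr19:31056739-31056978. They were 16 bp at chr5:16973586-16973976, 24 bp at chr7:20214318-20214631 and 26 bp at chr3:67113828-67114082. BCOR folds there were 4.46, 3.26, 6.06, 5.75 and 4.41, and Otx2 folds at E14 were 5.36, 7.18, 5.43, 5.84 and 5.14. Otx2 was present later in 3 of these 5, and in 76.1% of all regions of E14 alone with Otx2 at E14. Across all 1119 regions of E14 alone with Otx2, the shared stretch had a median of 239 bp, 15 shared 50 bp or less, and 17 were joined only through peaks of other libraries. The boundary by overlap thus left few regions close to it on either side.

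**Figure D5:**
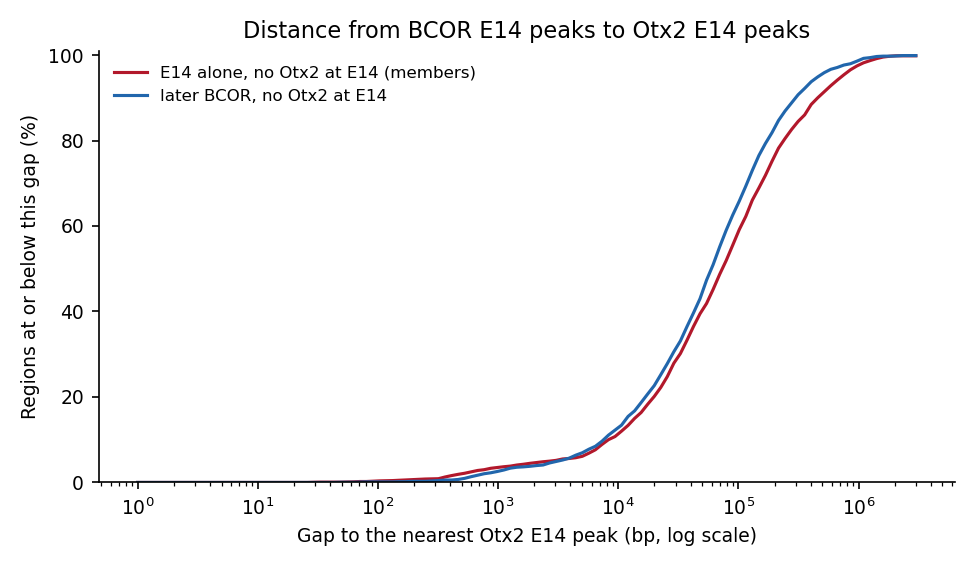
Cumulative share of regions (%) at or below each gap in bp (log axis) between the BCOR E14 peak and the nearest Otx2 E14 peak, for the E14-only regions and for those with later BCOR and no Otx2 at E14. The medians are 73567 and 59772 bp, and 3.49% of the E14-only regions lie within 1 kb.

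Most E14-only regions lay apart from one another. The nearest other BCOR peak of E14 lay a median of 51811 bp away, against 41438, 49351 and 42380 bp in the classes with later BCOR alone, with Otx2 at E14 alone and with both. Another BCOR peak of E14 lay within 10 kb of 14.7% of them, against 19.2%, 15.6% and 15.6% in the same order. The nearest other E14-only region lay 214980 bp away in the median, a distance not measured within the other classes. Of the E14-only regions, 127 (4.62%) had another within 10 kb. With neighbours linked at 10 kb, 2622 stood singly, 58 pairs and 2 runs of 3 formed, and 1 run held 5. Their share of the BCOR regions of E14 ranged over the autosomes from 20.8% on chromosome 11 (172 of 826, interval 18.2 to 23.7) to 31.4% on chromosome 13 (158 of 503, 27.5 to 35.6).

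The run of 5 regions and 1 of the 2 runs of 3 lay in 1 stretch of chromosome 5. The run of 5 spanned chr5:14994448-15007366 and a run of 3 chr5:15037422-15054646. Around them, chr5:14906470-15204032 (297563 bp) held 18 E14-only regions, with folds of 2.45 to 4.26 on pileups of 20 to 44 and local backgrounds of 5.42 to 12.8, against the genome-wide 1.497. The same stretch held 15 more BCOR regions of E14, all 15 with an Otx2 peak of E14 and no later BCOR, and 25 Otx2 peaks of E14 with a median background of 7.97. In the 8 later libraries, of either protein, it held 1 peak, of Otx2 in P0 replicate 2. The raised background was thus shared by the lists of both proteins at E14, and its part in these calls was not tested. The other 3 of the 5 longest runs had backgrounds of 1.497 to 2.39. They were chr11:115264836-115281708 (3 regions, folds 4.49 to 6.45), chr5:116728420-116739069 (a pair, both with later Otx2) and chr10:21868712-21879143 (a pair, none with it).

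Local background also varied among the E14-only regions. It sat at the genome-wide level in 1503 (54.7%), against 30.8%, 25.9% and 7.54% of the regions with Otx2 at E14 alone, with later BCOR alone and with both. In 86 regions (3.13%) it was at least 2 times that level, against 11.7% of all BCOR regions of E14; 18 of the 86 lay in the stretch of chromosome 5. Of these 86, 6 (6.98%, interval 3.24 to 14.4) held Otx2 at P0, against 522 of the 1503 at the genome-wide level (34.7%, 32.4 to 37.2). Without the chromosome 5 stretch the first count was 6 of 68 (8.82%). The tallest pileups were mostly of this kind: 21 regions had a pileup of 30 or more, with a median background of 10.3, and none of the 21 had an Otx2 peak at any later stage. Of these, 10 lay in the chromosome 5 stretch; the other 11 had a median background of 9.31. The median fold of the 21 was 3.19, below the 4.41 of all E14-only regions.

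The regions farthest from any Otx2 peak of the series clustered at the start of chromosome 14. They were chr14:3651336-3651724 (3817983 bp from the nearest Otx2 peak, BCOR fold 5.61), chr14:4121845-4122103 (3347604 bp, 4.41), chr14:6240246-6240767 (1228940 bp, 4.35) and chr14:6289437-6289767 (1179940 bp, 3.38). The fifth was chr2:176990953-176991468, 1000375 bp away, with a fold of 6.35. Later BCOR peaks were as remote, at least 2185343 bp from each of the 5. Across all 2749 regions the nearest Otx2 peak of any library was a median of 4671 bp away, and 1063 (38.7%) lay within 200 bp of one.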

How the data were processed

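CUT&RUN peaks came from 10 wild-type retina libraries, 1 list per library. Per the submitters' processing notes, tools included Bowtie2, MACS2 and deepTools, with builds mm9 and mm10. Chromosome names and ends fit mm9. The control and calling threshold are not given in the sources used here. In the deposited lists each peak has a score, a fold (ratio over local background), −log10 p-value, −log10 q-value and summit offset from the authors. Folds and q-values describe peaks within a list. Summit pileup and local background were solved from fold and −log10 p, which gave whole pileups (tolerance 0.001) for 97.5% to 99.6% of peaks per list and for all 2749 regions; whether a unit is a read or a fragment is unknown. Recovery was checked on simulated peaks. Each list's library total is unknown, so its background level was taken as relative depth. Wilson and Poisson intervals (95%) cover counting error only.

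Scripts used Python 3.11.15, pandas 2.3.3, numpy 2.4.6 and SciPy 1.17.1, with matplotlib 3.10.9 for figures. The regions, classes and naming rule were chosen with earlier results of these data known. Named regions were the 15 with the largest fold, 10 widest, 5 nearest to and 5 barely overlapping an Otx2 E14 peak, 5 of largest fold with Otx2 in all 4 later libraries and 5 without, 5 longest runs, and 5 farthest from Otx2. No mm9 genome or annotation was used here, so regions were not assigned to genes or promoters. Other merging, q-value, summit, replicate and distance settings were tried; direct overlap, background at the floor, and adult BCOR peaks with q under 0.05 were added after seeing the data.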

Additional observations from a re-analysis of the deposited data

How the results depend on the processing

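No paired analysis was possible because every result is a count, share or median from peak lists and comes from no test. The number of E14-only regions stayed within 1.5 times of 2749 under every setting tried: 2382 with q under 0.01 in every list, 2681 with peaks within 200 bp merged, 2799 without merging, 2830 with chromosome X, and 2752 to 3713 with 1 later BCOR replicate left out, highest without BCOR P0 replicate 2. The P0 Otx2 share, 32.4%, was 34.5% with merging at 200 bp, 34.2% by summits within 500 bp, 19.97% for both replicates and 34.7% among regions at the genome-wide background (a setting added after seeing the data), and it ranged from 25.1% to 35.6% with 1 replicate left out. The adult share, 11.5%, was 2.66% for both replicates and 2.76% to 14.1% with 1 replicate left out, lowest without Otx2 adult replicate 2. With q under 0.01 in every list the median fold was 4.57 and the median width 305 bp. With 1 later BCOR replicate left out, the median width ranged from 292 to 306 bp and the median gap to Otx2 at E14 from 67307 to 73571.5 bp. Within 5 kb of another E14-only region lay 2.62%, and within 50 kb 19.6%. Of 62 alternatives, 46 moved a value by less than its interval (a count, by less than 1.5 times); the cause of the other 16 shifts was not tested beyond what each setting itself changes. The share at promoters was not run, for want of an annotation of the build.

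Limits: the low pileups, with 1 library at E14, bound every statement on these regions. A missing later peak is a call not made at that depth, not a measured absence of BCOR, and lists were cut at different q-values. A missing Otx2 peak of E14 is likewise a call not made. Whether BCOR was lost from these regions was not tested.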
